A study of Mus musculus with 3 samples.

Results

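The cytosolic ribosomal protein genes were followed in 3 splenic lymphomas of the pBIC mouse. Members were the protein-coding genes named Rpl or Rps followed by a digit, together with Rplp0, Rplp1, Rplp2 and Rpsa. The ribosomal S6 kinases, Rps19bp1 and Rps27l were left out because their names begin alike but they encode other proteins. The rule gave 92 of the 37646 genes listed, of which 57 carry large subunit names and 35 carry small subunit names. Of these, 77 encode standard subunits of the ribosome (46 large, 31 small), and 15 are relatives or copies of them, such as Rpl22l1, Rpl39l or Rpl10-ps3. All 3 samples were of strain C57BL/6 with the genotype p53F/F Blimp1F/F IKK2castopF/stopF Cg1Cre/+, so every tumour carried conditional alleles of p53 and of Blimp1 and a conditional, constitutively active IKK2 allele. Cre was driven from the immunoglobulin Cγ1 locus, which is active in B cells that switch isotype. Cells positive for B220 and GFP were sorted from spleens of moribund mice as a model of the activated B cell subtype of diffuse large B cell lymphoma. The tumours form 1 group, so there is no treated or control arm. Sorted germinal centre B cells, which the design names as controls, were not analysed here. Nothing in the labels states outright that the samples came from separate animals, so the spread between them may be partly technical.

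A ribosome holds a single copy of nearly every ribosomal protein, and the acidic stalk proteins are the main exception. The genes are transcribed at high level in growing cells, their mRNAs begin with a pyrimidine tract through which mTOR and LARP1 control translation, and most of them have many processed pseudogenes. Some free ribosomal proteins, among them RPL5 and RPL11, bind MDM2 and so link ribosome assembly to p53, which the lymphoma cells of this model are designed to lack.

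Ribosomal protein genes took 2.89, 4.14 and 3.70% of all counts in tumours 1, 2 and 3. Their 95% binomial intervals (Clopper-Pearson) were 2.89 to 2.90%, 4.13 to 4.15% and 3.69 to 3.71%. The mean was 3.58% ± 0.632 (SD, n = 3). Library totals were nearly equal, at 15141009, 15022902 and 15074513 counts. The intervals cover counting error only and not the spread between tumours. The libraries carry no molecular identifiers, so duplicate reads count as separate and even the counting error may be understated. Large subunit genes held 1.42, 1.36 and 1.35 times as many counts as small subunit genes in tumours 1, 2 and 3. These are sums over 57 large and 35 small subunit names, so they do not compare levels per gene. The 10 members with most counts held 63.3, 63.1 and 63.7% of all member counts. A small number of genes thus carried most of the family's signal in each tumour.

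Levels of different genes were compared as TPM, which is the count divided by the union length of a gene's exons and scaled to a sum of 1000000 per library. The 5 highest members included 2 proteins of the stalk, the flexible arm of the large subunit that recruits translation factors. Rplp1 (chr9:61913284-61914542) had 8202, 12718 and 11231 TPM in tumours 1, 2 and 3. Rplp0 (chr5:115559467-115563727), the base of the stalk, had 5327, 6458 and 6251 TPM. Rplp2, the partner of Rplp1 in the stalk, had 763, 1033 and 927 TPM, below both in every tumour. The other leading members were Rpl4 (chr9:64173375-64178666), a large subunit protein that lines the exit tunnel, with 6634, 7250 and 6771 TPM, Rpl8 (chr15:76904078-76906314), near the peptidyl transferase centre, with 4556, 6621 and 6703 TPM, and Rps15 (chr10:80292453-80294114), a protein of the small subunit head, with 4586, 6281 and 5634 TPM. Tumour 1 had the lowest TPM of the 3 tumours for each of these 6 genes.

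Below these stood a broad middle of both subunits. Rpl32, a large subunit protein, had 2824, 3329 and 3409 TPM, and Rpl41, the shortest of the ribosomal proteins, had 1853, 2230 and 1864 TPM. Among small subunit genes, Rps9, which lies at the mRNA entry, had 1558, 2084 and 1785 TPM. Rps2, also at the mRNA entry and a substrate of the methyltransferase PRMT3, had 751, 1156 and 1038 TPM. All 4 were lowest in tumour 1. Mean TPM over the 3 tumours had quartiles of 58.7 and 507 around a median of 196 among the 46 standard large subunit genes. Among the 31 standard small subunit genes the quartiles were 47.1 and 1037 around a median of 240, so the upper quartile stood further out in the small subunit and the lower quartiles were close.

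At the other end stood genes whose proteins are equally required in the ribosome. Rpl24, a large subunit protein at the bridge between subunits (chr16:55966275-55971435), had 32, 47 and 55 counts, which gave 6.57, 8.68 and 10.5 TPM. Rps10 (chr17:27630418-27636669), a small subunit protein mutated in some patients with Diamond-Blackfan anaemia, had 11.9, 12.0 and 9.73 TPM. Rpl21 (chr5:146832890-146837032), a large subunit protein, had 14.1, 15.2 and 16.7 TPM. Rps6 (chr4:86854660-86857412), the substrate of the S6 kinases, had 16.3, 16.9 and 19.4 TPM. Between the lowest and the highest standard gene, mean TPM thus ran from 8.59 to 10717. The lowest of all members with at least 10 counts in every tumour was no standard gene but the copy Rpl9-ps6, with 5.03, 5.06 and 7.74 TPM. Over the 81 members with at least 10 counts in every tumour, the 90th percentile of TPM was 83.6, 74.1 and 88.9 times the 10th percentile in tumours 1, 2 and 3, a mean of 82.2 ± 7.48 (SD, n = 3). A single member, by contrast, differed between its highest and lowest tumour by a median of 1.47-fold in CPM, counts scaled to the same sum without division by length. The order of the 77 standard genes was nearly the same in every tumour, with Spearman's rho between pairs of tumours from 0.989 to 0.993 (across genes, which are not independent replicates). The difference between members was therefore far wider than the difference between tumours.

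**Figure D1:**
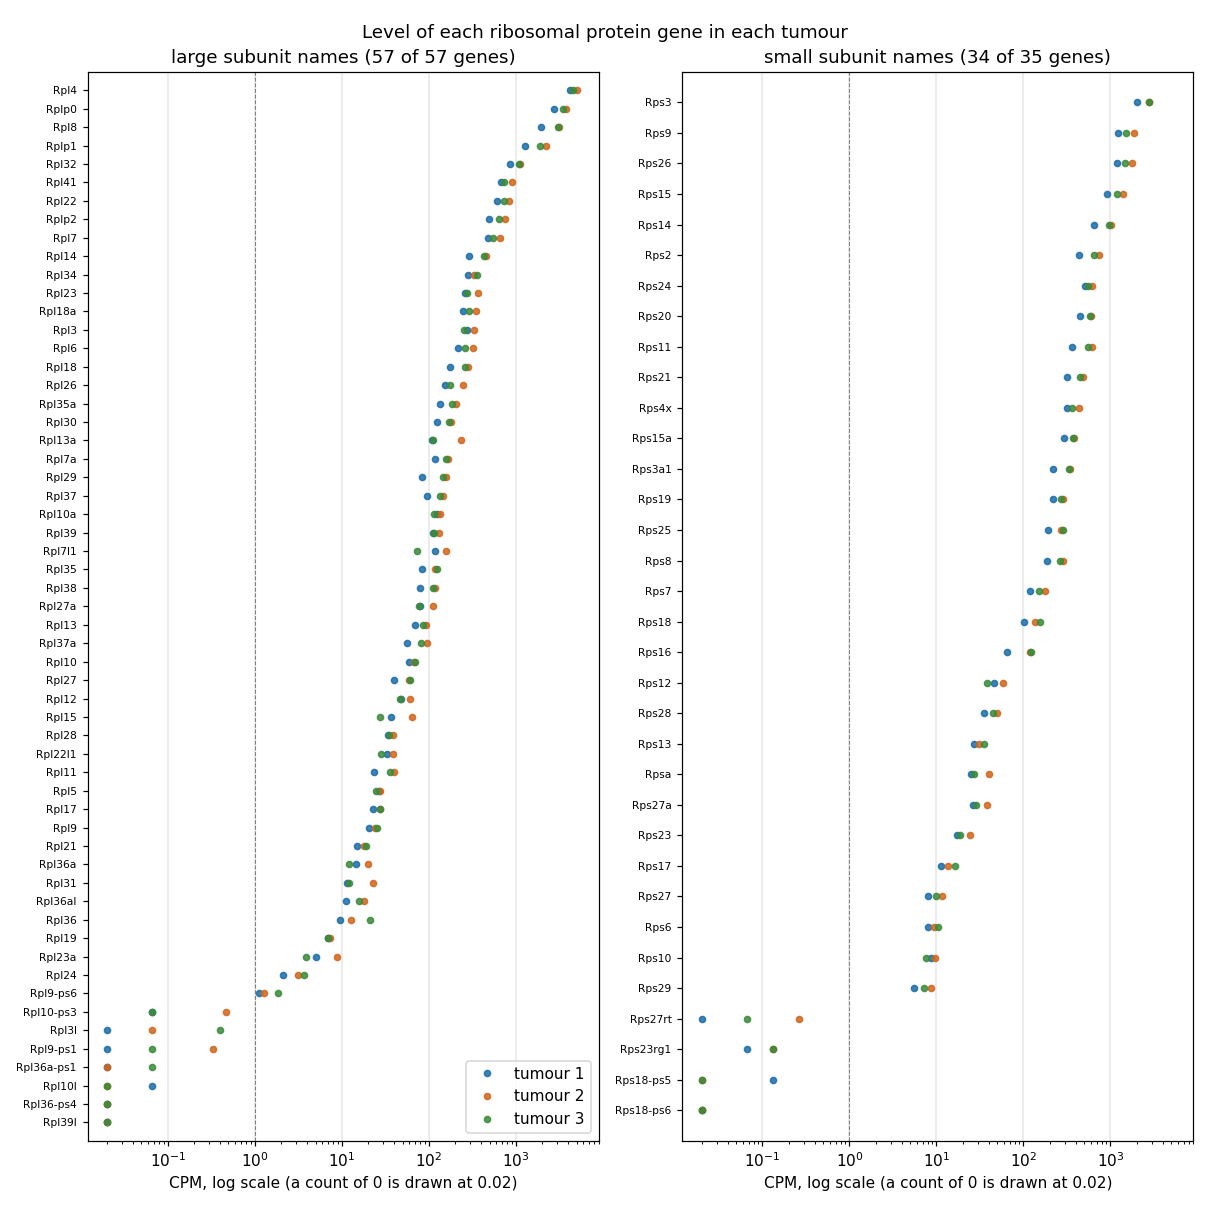
CPM of the members in each tumour (57 large and 34 of 35 small subunit names) on a log axis, large subunit names on the left and small subunit names on the right, ordered by mean, with a count of 0 drawn at 0.02 and a dashed line at 1 CPM. Points of the 3 tumours lie close together for each gene, while genes run from under 10 CPM (Rpl24, Rps29) to over 1000 CPM (Rpl4, Rps3), and the 11 genes left of the dashed line in every tumour are relatives or copies.

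Members with known roles beyond the ribosome were spread over the whole range. Rpl5, which binds 5S ribosomal RNA and MDM2, had 27.1, 27.5 and 24.9 CPM in tumours 1, 2 and 3. Rpl11, its partner in that complex, had 23.6, 39.9 and 35.6 CPM. Rpl23 and Rpl26, which also bind MDM2, had higher CPM, with 259, 365 and 274 CPM for Rpl23 and 155, 249 and 177 CPM for Rpl26. For Rpl11, Rpl23 and Rpl26 tumour 1 had the lowest CPM, while Rpl5 was lowest in tumour 3 and nearly level. Coding windows unique to the gene (described below) were 0% in Rpl5, 2.61% in Rpl11, 20.9% in Rpl23 and 22.0% in Rpl26. The part of these shares in the differences between the genes was not tested. Rps3, a small subunit protein at the mRNA entry with a described role in DNA repair, had 2001, 2773 and 2761 CPM. Rpsa, also known as a laminin receptor, had 25.2, 40.3 and 27.1 CPM. Rps19, the gene most often mutated in Diamond-Blackfan anaemia, had 216, 287 and 267 CPM. Rpl10, a late-joining large subunit protein mutated in some T cell leukaemias, had 59.0, 67.7 and 69.2 CPM. Tumour 1 was the lowest for these 4 genes as well.

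Large subunit genes lay below small subunit genes on the main scale. The median log2(TPM + 1) of large minus small subunit members was -0.46, -0.44 and -0.41 in tumours 1, 2 and 3, a mean of -0.44 ± 0.03 (SD, n = 3), with no test because the value is a score over chosen members. With the 15 relatives and copies left out, a choice made after seeing the data, it was -0.20, -0.24 and -0.50, with a mean of -0.31. The sign turned when counts were divided by the number of 50-base windows that are unique to a gene (described below) in place of exon length, where the mean was 0.067. No order of the subunits held on every scale.

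Uneven counting was described from the sequences. Reads were single and 50 nt long, so each 50-base window of a member's coding sequence was compared with all annotated transcripts of genes at other places in the genome. A window with no exact match elsewhere was called unique. Of the 77 standard genes, 20 (26.0%) had no unique coding window, against 34 of 10294 other tested protein-coding genes (0.330%). The median standard gene had 14.7% of its coding windows unique, and the median of the other genes was 100%. Over whole transcripts, where untranslated parts are included, the median of the standard genes was 64.5%. In all, 1140 genes shared at least 1 coding window with a member. Of these, 991 were pseudogenes listed under the same gene name among the counted genes.

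The first 150 coding bases of 3 standard genes show the range from a gene partly free of copies to genes that are covered by them. Bases in at least 1 unique window are in capitals and all others in lower case, from transcripts of GENCODE release M21 (GRCm38, the assembly also called mm10), 5′ to 3′.
Rps26: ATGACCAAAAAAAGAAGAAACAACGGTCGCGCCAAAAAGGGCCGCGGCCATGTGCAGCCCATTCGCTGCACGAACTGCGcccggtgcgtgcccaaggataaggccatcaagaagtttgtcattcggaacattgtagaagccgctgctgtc
Rpl19: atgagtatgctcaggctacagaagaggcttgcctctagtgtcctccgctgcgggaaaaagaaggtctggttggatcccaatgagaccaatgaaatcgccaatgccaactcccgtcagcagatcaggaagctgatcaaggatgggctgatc
Rpl23a: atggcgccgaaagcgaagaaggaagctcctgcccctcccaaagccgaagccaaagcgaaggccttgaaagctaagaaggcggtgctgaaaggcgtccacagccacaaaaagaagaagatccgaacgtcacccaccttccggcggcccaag

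Rps26 (chr10:128624534-128626747), which contacts mRNA upstream of the start codon, had 80 of 296 coding windows unique and 1189, 1752 and 1462 CPM in tumours 1, 2 and 3. Rplp1 had 39.6% unique, with 1279, 2222 and 1884 CPM. Rpl19 (chr11:98026710-98030492), which forms a bridge between the subunits, had none of 539 unique and only 6.87, 7.26 and 7.03 CPM. Rpl23a (chr11:78180932-78183584), near the exit of the tunnel, had none of 419 unique and 5.09, 8.92 and 3.85 CPM. Of the Rpl19 coding windows, 90.7% were found in the processed pseudogene Rpl19-ps11, which itself had 3.10 CPM on average. For Rpl23a, 88.1% were found in Rpl23a-ps3, at 0.288 CPM. Other genes also overlap 62.3% of the exon bases of Rpl23a and 47.0% of those of Rpl24.

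Across the 77 standard genes the level was higher where more of the coding sequence was unique. Median CPM was 26.4 for the 20 genes without a unique coding window, 148 for the 33 genes with up to 25% unique, 565 for the 11 genes from 25 to 50% and 752 for the 8 genes from 50 to 75%. The 5 genes above 75%, among them Rps3, Rpl8, Rpl4 and Rpl13a, ran from 152 to 4608 CPM. Spearman's rho between the unique coding share and mean TPM per coding length was 0.762 over the 77 genes, with 0.792 in the large and 0.742 in the small subunit. With whole-transcript windows, the measure planned first, rho was 0.515 with TPM per coding length. With TPM per union exon length, the main scale, it was 0.340, and the coding share had 0.725. Coding windows were added after the whole-transcript values had been seen. Among 10294 other tested protein-coding genes the coding rho was -0.109, though 81.9% of them had every coding window unique. Coding length itself had a rho of -0.100 with the level of the standard genes. These are correlations across genes that share the same 3 libraries, given as descriptions. Whether reads that map to several places were counted is not stated in the labels, and the part of multiple mapping in these levels was not tested.

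**Figure D2:**
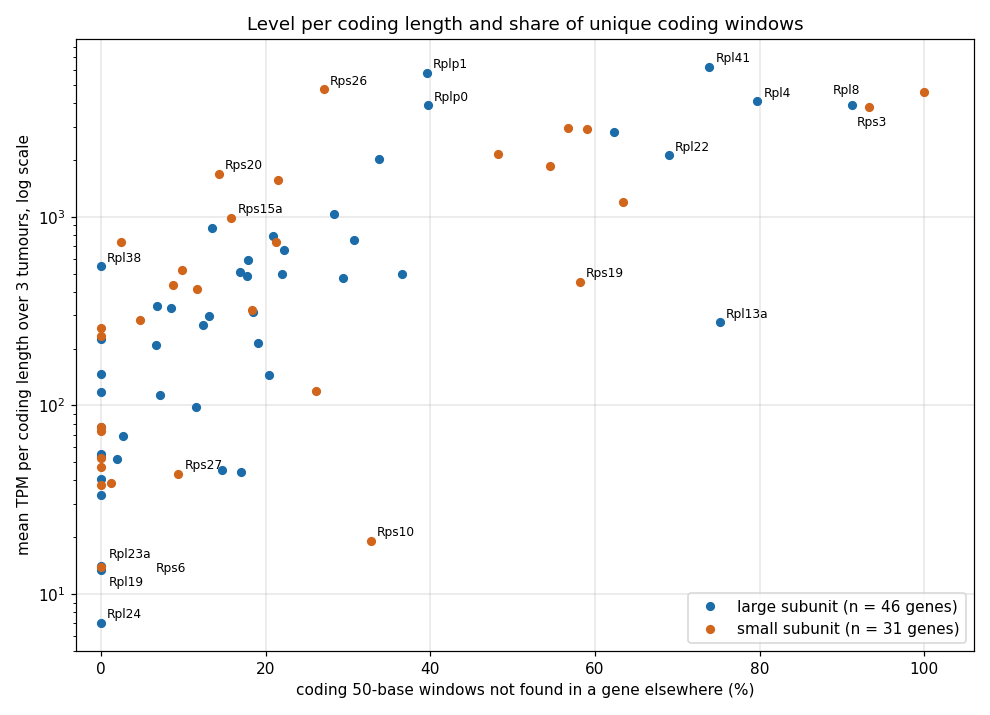
Mean TPM per coding length over 3 tumours (log axis) against the share of coding 50-base windows not found in a gene elsewhere, one point per standard gene, large subunit in blue (n = 46) and small subunit in orange (n = 31). The lowest genes (Rpl24, Rpl19, Rpl23a, Rps6) stand at 0% and the genes above 75% stand near the top except Rpl13a, while Rps10 is low at 32.7%.

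The relation had exceptions on both sides. Rpl38, a small protein of the large subunit, had no unique coding window and yet 79.5, 117 and 113 CPM in tumours 1, 2 and 3. Its transcript was 72.6% unique over its whole length. Rps28 and Rpl15, likewise without a unique coding window, were each 76.8% unique over the whole transcript. Their means were lower, at 43.1 and 42.5 CPM. Rps16, a small subunit protein near the decoding site, also had no unique coding window, with 64.4, 118 and 124 CPM. Rps25, which some viral internal ribosome entry sites require, had 2.44% unique and 190, 267 and 282 CPM. Rps20, a protein of the small subunit head, had 14.3% unique and 452, 600 and 576 CPM. In the other direction, Rps10 was 32.7% unique but had 8.59, 9.72 and 7.56 CPM, and 28.7% of its exon bases overlap other annotated genes. Rpl13a was 75.2% unique with a mean of 152 CPM, below the other 4 genes of its class, and 35.4% of its exon bases overlap other genes, small nucleolar RNA Snord33 among them. The number of copies varied widely among these genes. Rps2 shared coding windows with 71 other genes and had a mean of 603 CPM, whereas Rpl21 shared them with 82 and had 17.4 CPM, and Rpl17, a large subunit protein near the tunnel exit, shared them with 51 and had 26.2 CPM.

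Counts assigned to the copies themselves were few. A further 274 genes are named as copies of members but are not protein-coding, and together they had 153, 214 and 209 CPM in tumours 1, 2 and 3, or 0.529, 0.518 and 0.566% of the member counts. Of these 274, 15 had at least 1 CPM in every tumour and 42 had no count in any. The highest was Rpl14-ps1, with 52.3, 75.1 and 70.7 CPM, beside 291, 458 and 428 CPM for Rpl14 itself, a large subunit protein. It holds 77.7% of the coding windows of Rpl14. The next were Rps7-ps3 with a mean of 16.1 ± 2.34 CPM, Rpl22-ps1 with 11.2 ± 2.24, Rps13-ps2 with 7.52 ± 2.11 and Rps16-ps2 with 6.72 ± 1.19 (SD, n = 3). Over the 991 pseudogenes matched by name that share a coding window with a member the sum was 443, 615 and 577 CPM. Copies counted under another name than in M21, such as Rps7-ps3, were left out of this sum.

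The members below 1 CPM in every tumour were 11, all of them relatives or copies. Among them were the tissue-restricted paralogs Rpl3l, the form of skeletal muscle and heart, with 0, 1 and 6 counts, Rpl10l, the testis form, with 1, 0 and 0, and Rpl39l, also known from male germ cells, with 0 counts in all 3 tumours. A count of 0 still allows up to 3 counts, or 0.198, 0.200 and 0.199 CPM. Of the coding windows, 100% were unique in Rpl3l and Rpl39l and 87.5% in Rpl10l. The other 8 were Rps27rt, Rps23rg1, Rpl9-ps1, Rpl10-ps3, Rpl36-ps4, Rpl36a-ps1, Rps18-ps5 and Rps18-ps6, with between 0 and 7 counts in a tumour. No standard gene fell below 1 CPM in every tumour.

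Coding starts of 3 gene and copy pairs, 120 bases each, show how alike a gene and its copy can be over the length of a read. Capitals mark bases that differ within a pair, in transcripts of release M21.
Rps27: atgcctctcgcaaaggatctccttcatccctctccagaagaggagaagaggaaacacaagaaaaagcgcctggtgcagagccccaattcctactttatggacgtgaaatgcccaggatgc
Rps27rt: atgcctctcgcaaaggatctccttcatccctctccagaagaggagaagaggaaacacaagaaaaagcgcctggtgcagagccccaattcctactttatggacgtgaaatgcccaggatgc
Rpl10: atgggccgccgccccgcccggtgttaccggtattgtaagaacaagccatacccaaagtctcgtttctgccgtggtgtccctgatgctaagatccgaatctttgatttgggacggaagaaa
Rpl10-ps3: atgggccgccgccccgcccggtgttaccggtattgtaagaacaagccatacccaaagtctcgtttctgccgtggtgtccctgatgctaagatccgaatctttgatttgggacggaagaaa
Rpl36a: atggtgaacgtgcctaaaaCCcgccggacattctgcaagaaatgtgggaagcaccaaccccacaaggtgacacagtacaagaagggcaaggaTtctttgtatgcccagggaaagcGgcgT
Rpl36a-ps1: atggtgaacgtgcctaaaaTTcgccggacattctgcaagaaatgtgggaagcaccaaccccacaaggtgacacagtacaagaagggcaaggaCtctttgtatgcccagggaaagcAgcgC
The coding sequences of Rps27 and Rps27rt were identical over 252 bases, and those of Rpl10 and Rpl10-ps3 over 642 bases. Rpl36a and Rpl36a-ps1 differed at 7 of 318 bases, 5 of them in the stretch shown. Rps27 (chr3:90212522-90213651) had 120, 175 and 148 counts, against 0, 4 and 1 for Rps27rt (chr9:114982366-114982739). Rpl10 (chrX:74270812-74273135) had 894, 1017 and 1043 counts, against 1, 7 and 1 for Rpl10-ps3 (chr9:50344201-50344968). Rpl36a (chrX:134585654-134588062) had 220, 305 and 183 counts, against 0, 0 and 1 for Rpl36a-ps1 (chr14:98993870-98994318). In each pair nearly all counts stood on the gene and few on the copy.

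Some paralogs were expressed beside their partner. Rpl22, a large subunit protein that binds RNA and is lost in some T cell lymphomas, had 676, 829 and 747 TPM, and its paralog Rpl22l1 had 53.2, 56.2 and 42.5 TPM. The mean of Rpl22 was 14.8 times that of Rpl22l1, and their ranges did not overlap. Rpl7 had 579, 710 and 599 TPM, and Rpl7l1, which takes part in ribosome assembly, had 107, 129 and 62.4 TPM, again without overlap. Rpl36a and Rpl36al, which encode nearly the same protein, were close, with 28.1, 35.0 and 21.8 TPM against 26.6, 37.8 and 35.0 TPM. Their difference on the log2(TPM + 1) scale was -0.23 ± 0.38 (SD, n = 3) and changed sign between tumours, so it was within the spread between tumours. The partners differed in the unique share of their whole-transcript windows. It was 14.5% in Rpl36a and 83.9% in Rpl36al, 94.8% in Rpl22 and 48.6% in Rpl22l1, and 50.7% in Rpl7 and 92.5% in Rpl7l1. The part of these shares in the levels of the pairs was not tested. Rps4x, the X-linked small subunit gene, had 613, 753 and 662 TPM, and its relative Rps4l was not analysed here.

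**Figure D3:**
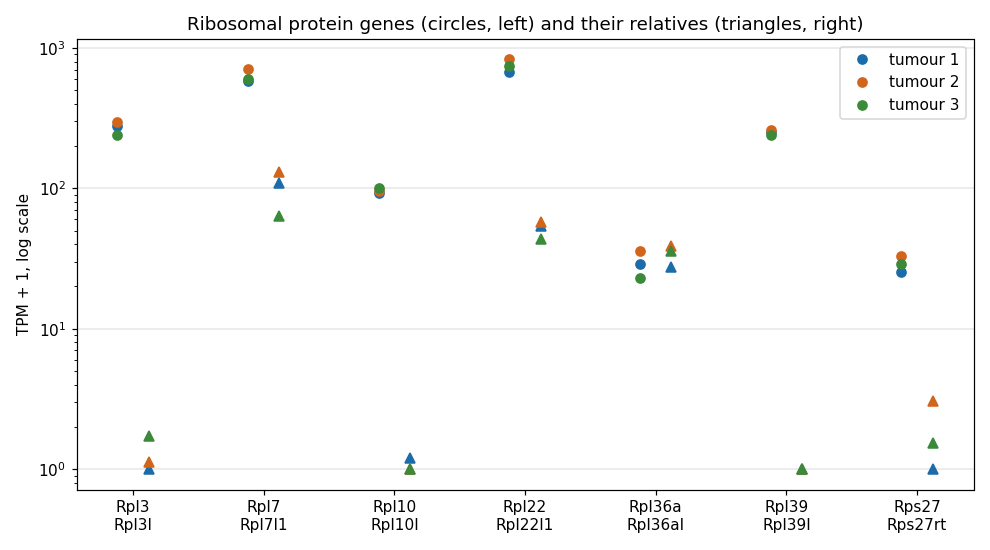
TPM + 1 on a log axis for 7 ribosomal protein genes (circles) and their relatives (triangles), one point per tumour, coloured by tumour. Circles lie above triangles in every tumour for all pairs except Rpl36a and Rpl36al, whose points overlap.

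The test of variability between tumours called no member, and it called so few genes of any kind that this count says little about the members. In edgeR's intercept-only fit with an F test on residual deviance, 0 of 81 tested members passed an adjusted p of 0.05, beside 16 of all 11478 genes tested (0.139%). Without the filter on low counts 0 of 89 members passed, beside 0.643% of 25500 genes. At an unadjusted p under 0.05 the count was 1 of 81, beside 6.27% of all genes. That member was Rpl13a, a large subunit protein with a described role in silencing inflammatory mRNAs, with 109, 236 and 112 CPM in tumours 1, 2 and 3. Its value in tumour 2 was above both others, and its adjusted p in the edgeR fit was 0.768. The next by p were Rpl15, Rpl7l1, Rps16, Rpl29 and Rplp1, with adjusted p in the edgeR fit from 0.888 to 0.997. Rpl15, a large subunit protein, had 36.5, 63.8 and 27.3 CPM and was likewise highest in tumour 2. Rpl29, a heparin-binding large subunit protein, had 83.5, 159 and 146 CPM and was lowest in tumour 1. The remaining 11 members had too few counts for the fit.

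Although no single member passed, the members were mostly ordered alike. Tumour 1 had the lowest CPM for 69 of 81 tested members, beside 29.6% of all genes tested. This pattern was noticed in the data, and it restates gene by gene the lower share of counts in tumour 1. By subunit the count was 40 of 50 large and 29 of 31 small. Tumour 2 was highest for 65 of 81, beside 30.2% of all genes, and tumour 3 for the other 16, beside 34.5%. Tumour 1 minus the mean of tumours 2 and 3 had a median of -0.39 on the log2(CPM + 1) scale over members, against 0.05 over all genes tested. The median was -0.37 for large and -0.43 for small subunit members. The lowest values were those of Rps16 (-0.90) and Rpl29 (-0.86), and the highest was that of Rpl7l1 (0.12). The 12 members that were not lowest in tumour 1 were all lowest in tumour 3, and they were Rpl3, Rpl5, Rpl7l1, Rpl10a, Rpl12, Rpl15, Rpl22l1, Rpl23a, Rpl27a, Rpl36a, Rps10 and Rps12.

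Shorter genes outside the family were also more often lowest in tumour 1 than longer ones. Among protein-coding genes that are no members, tumour 1 was lowest for 59.4% of the 1283 genes with up to 600 coding bases, with a median difference of -0.33. The share was 47.2% from 600 to 900 bases, with a median of -0.17, 33.9% from 900 to 1500, with a median of -0.04, 17.7% from 1500 to 3000 and 3.65% above 3000, where the median difference was 0.50. Of the members, 56 had up to 600 coding bases, and 49 of those (87.5%) were lowest in tumour 1, with a median of -0.42. Another 21 members had 600 to 900 coding bases, and 17 of those (81.0%) were lowest in tumour 1, with a median of -0.37. Of the 4 members with 900 to 1500 coding bases, 3 were lowest there, with a median of -0.30. In each of these length classes the members' share and the size of their median stood above those of other genes, and that difference was not tested. The part of transcript length in the pattern, and of any difference in RNA quality or library preparation, was not tested. Mitochondrial ribosomal proteins, which form the separate ribosome of that organelle, were lowest in tumour 1 for 66 of 77 tested genes, with a median of -0.51 and 0 of 77 called. Mitochondrially encoded transcripts took 5.59, 5.06 and 4.86% of counts and so were highest in tumour 1.

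**Figure D4:**
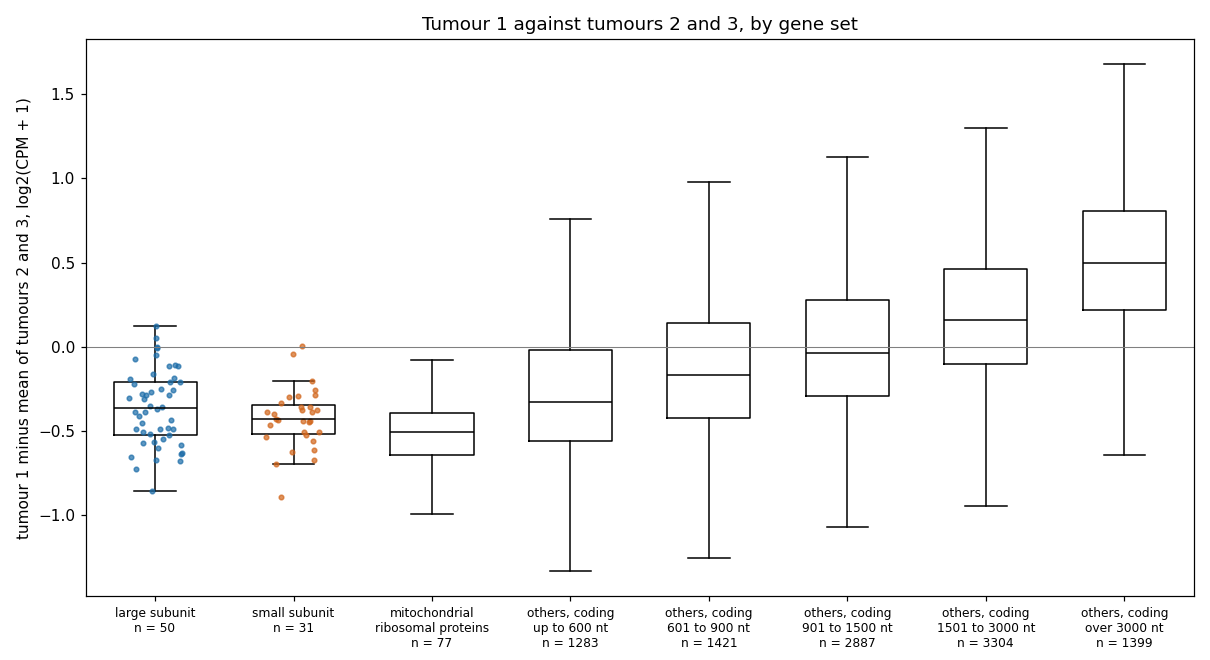
Tumour 1 minus the mean of tumours 2 and 3 in log2(CPM + 1) for tested members by subunit, for mitochondrial ribosomal proteins and for other protein-coding genes by coding length. Boxes show the median and quartiles, whiskers reach the last value within 1.5 box heights, and points are single members. The medians of members are -0.37 and -0.43, and those of other genes run from -0.33 with up to 600 coding bases over -0.17 and -0.04 to 0.50 above 3000 bases.

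Cell type markers in the libraries were as follows. All 7 B cell markers had at least 1 CPM in every tumour, and their sum was 12593, 10213 and 12738 CPM. Summed markers in tumours 1, 2 and 3 were 17.5, 25.6 and 40.5 CPM for T cells (6 genes), 54.6, 18.4 and 2.85 for neutrophils (5 genes), 8.12, 17.8 and 4.84 for macrophages (5 genes), 6.93, 22.9 and 135 for erythroid cells (5 genes) and 139, 567 and 308 for plasma cells (4 genes). No marker was at 0 in all tumours, and 1 erythroid and 1 plasma cell marker passed the edgeR test. Plasma cell, erythroid and T cell sums were lowest in tumour 1, as most members were. The B cell sum was lowest in tumour 2, and the neutrophil and macrophage sums were lowest in tumour 3. Within the plasma cell list Jchain and Prdm1 were lowest in tumour 1, whereas Xbp1 and Sdc1 were lowest in tumour 3. Jchain was the largest part of the plasma cell sum in tumours 2 and 3. The part of these cell types in the members' order was not tested. In such bulk samples fewer cells of a type and less RNA per cell cannot be told apart.

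Genes that work with the ribosomal proteins were read from lists. Rack1 and Fau encode ribosomal proteins that the naming rule does not catch, and both were lowest in tumour 1. Rack1, a scaffold protein on the small subunit, had 2885, 4203 and 3575 CPM and 98.6% unique coding windows. Fau, which encodes a fusion of a ubiquitin-like protein with a ribosomal protein, had 22.1 ± 5.13 CPM (SD, n = 3) and 12.1% unique coding windows. Of 9 measured chaperones and export or assembly factors 5 were lowest in tumour 1, with a median of -0.35. Of 15 other mRNAs with a terminal pyrimidine tract, such as those of elongation factors, 9 were lowest in tumour 1, with a median of -0.27. Of 10 genes of ribosomal surveillance and of mTOR and LARP1 control 2 were lowest there, with a median of 0.17. No gene of these lists passed the edgeR test. Larp1, which binds the pyrimidine tract, had 841, 706 and 851 CPM, and Mtor had 117, 66.8 and 99.8 CPM. Mdm2, the p53 ligase bound by RPL5 and RPL11, had 69.2, 72.0 and 77.9 CPM.

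Start sites were read because the members share the order of the tumours and are known for a pyrimidine tract there. RefSeq promoters (GRCm38.p6) matched 57 standard genes. At the annotated start base, 13 of 57 (22.8%) had a C followed by at least 4 bases that are C or T, against 2.92% of 8695 other tested genes. A run of 8 such bases from 20 bases before to 50 after the start was found in 78.9%, against 26.7%. In that same stretch, read along the gene's own strand, the letters CTCTTTCC stood in 12.3%, against 0.414%. CCGGAAG, on either strand and from 250 bases before to 50 after the start, was in 42.1% against 22.4%, CACGTG in 10.5% against 12.2% and GGGCGG in 61.4% against 69.1%. The motifs were chosen with earlier results of these data known, and a match describes letters only. Windows of 15 bases before and 15 from the start base on are shown for 6 of the 13 genes, with the tract in capitals.
Rpl15: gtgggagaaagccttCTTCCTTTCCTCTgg
Rpl35: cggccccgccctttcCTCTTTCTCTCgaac
Rps6: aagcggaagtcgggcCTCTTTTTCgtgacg
Rpl28: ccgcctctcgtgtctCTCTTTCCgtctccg
Rps18: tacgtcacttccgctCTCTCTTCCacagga
Rps10: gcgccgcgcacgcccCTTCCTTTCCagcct
Their positions are chr14:18270972-18271001 for Rpl15, chr2:39005117-39005146 for Rpl35, chr4:86857353-86857382 for Rps6, chr7:4792950-4792979 for Rpl28, chr17:33955651-33955680 for Rps18 and chr17:27635230-27635259 for Rps10. Rpl28 is on the plus strand and the other 5 are on the minus strand. The tracts were 13, 11, 9, 8, 9 and 10 bases long in this order. Among these genes Rps18 had 102, 135 and 156 CPM and Rpl35 had 84.0, 117 and 125 CPM, both lowest in tumour 1, whereas Rpl15 and Rps10 were lowest in tumour 3. Of the 13 genes with a tract at the annotated start 11 were lowest in tumour 1, beside 38 of the 44 standard genes with a promoter and no such tract.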

How the data were processed

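Gene counts of 3 sorted pBIC tumours, 1 library each and numbered in accession order, were used as the authors deposited them: raw counts per gene. The submitters' processing notes name mm10 as the build and FastQC, STAR 2.5.2b and featureCounts 1.6.0 as tools. For strand use, reads with several matches and the annotation release, the setting is not given in the sources used here. The members and gene lists were chosen with earlier results of these data known.

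CPM used library totals. TPM used union exon lengths of GENCODE M21, in which all 92 members were found. Variability was tested with edgeR 4.0.16 (R 4.3.3) with TMM factors on 11478 genes passing filterByExpr: the residual deviance on 2 degrees of freedom of an intercept-only fit, over the robust prior variance, was compared one-sided with an F distribution (2 and 15.8 degrees of freedom) and adjusted by Benjamini-Hochberg over all genes tested. The fit was also run on simulated counts, with and without changes planted in single tumours. The planted changes were larger than the difference of any tested member between tumours. That run therefore says nothing about changes of the members' size. DESeq2 1.42.0 gave size factors for an alternative. Windows of 50 bases were compared on both strands with M21 transcripts of genes whose spans do not overlap the member's, not with a genome. Named genes were those below 1 CPM in every tumour, the 5 highest and 5 lowest by TPM, the 6 smallest p-values, paralog pairs, stalk proteins, members with known other roles and the 5 highest named copies. Further genes (Rpl14, Rpl17, Rpl32, Rpl41, Rps2, Rps9, Rps18, Rps20, Rps25, Rps26, Rpl19, Rpl23a, Rpl28, Rpl35, Rpl38), the printed sequences, the motifs, the order of tumours and the coding-length classes were chosen after values were seen. Some members and listed genes are not reported here by name.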

Additional observations from a re-analysis of the deposited data

How the results depend on the processing

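No paired analysis was possible because the tumours form 1 group and share no replicate numbers with another. No member passed the variability test under any of 7 alternatives (library totals, DESeq2 size factors, no filter, a mean count of at least 10 and each tumour left out), where 0 to 3 members had an unadjusted p under 0.05 in edgeR. With library totals, with a mean count of at least 10, without tumour 1 and without tumour 2 no gene at all was called, so the members' count carries no information there. Over all genes 16 of 11478 were called with DESeq2 size factors, 164 of 25500 without the filter and 11 of 11812 without tumour 3. The large minus small subunit difference, -0.44, was reversed to 0.067 with unique 50-base windows as length. It was -0.66 with coding length, -0.71 without length, -0.56 for members with at least 10 counts in every tumour and -0.47 as a mean. With standard genes only, an alternative added after seeing the data, it was -0.31, or -0.47 with coding length as well. Leaving out each tumour gave -0.45 to -0.42. The spread between members, 82.2-fold, was 63.1 with unique windows and 95.8 with at least 1 count in every tumour, and 78.9 to 86.3 without each tumour. The 11 members below 1 CPM became 17 below 10 CPM. For these moves the cause was not tested, apart from the higher threshold. The share of counts, 3.58%, ranged from 3.30 to 3.92% without each tumour. Tumour 1 was lowest for 69 members with TMM and with DESeq2 size factors too, beside 32.5 and 33.4% of all genes, and for 67 of the standard genes. With TMM and DESeq2 size factors all 184 rescaled levels of single members lay within 1 SD of the mean. These factors lay between 0.953 and 1.029, while the members' median coefficient of variation between tumours was 19.9%. Little else was possible, so nothing is concluded from this count. Windows were compared with annotated transcripts only, so copies that are not annotated were missed, and reads with mismatches were not modelled.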
